A study of Homo sapiens with 12 samples.

Results

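A set of 36 genes of the unfolded protein response and of protein folding in the endoplasmic reticulum (ER) were followed in human multiple myeloma cells treated with dihydroartemisinin (DHA). The 36 genes come from a list by function, drawn up with earlier results of these data known, and all 36 were found in both deposited tables, which hold 61806 genes for LP-1 and 19130 for U266. They were described in 4 classes of 5 sensors and factors, 11 chaperones and lectins, 9 disulfide isomerases and oxidases, and 11 genes of ER-associated degradation. Both LP-1 and U266 are established myeloma lines, derived from plasma cell tumours and labelled wild type. In each line, 3 libraries came from cells that received DHA at its IC50 for 12 h and 3 from cells that received the same amount of the solvent DMSO, 12 libraries in all. No concentration of DHA is stated in the labels. The labels do not say that replicates came from separate cultures. The p-values therefore measure spread between libraries that may be only technical. DHA, to which artemisinin antimalarials are converted in the body, is an endoperoxide that reacts with iron and heme. The title of the series concerns ferroptosis, a cell death through iron-dependent lipid peroxidation.

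Plasma cells secrete antibody in bulk and so depend on the folding machinery of the ER. When unfolded protein builds up there, the chaperone BiP (HSPA5) leaves 3 membrane sensors. IRE1 (ERN1) splices the XBP1 message so that it encodes an active transcription factor, ATF6 is cut in the Golgi to release its factor domain, and PERK (EIF2AK3) phosphorylates eIF2 alpha, which slows translation and favours ATF4 and CHOP (DDIT3). ATF6 and spliced XBP1 act through ER stress elements in the promoters of chaperones, disulfide isomerases and degradation genes. Gene-level values cannot tell spliced from unspliced XBP1, so splicing was not measured.

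Promoter sequences are shown first, because the changes of the members are set beside these elements further on. Windows of 250 bases before to 50 after the RefSeq start (build GRCh38.p14) were found for 33 members, and 3 (PDIA3, DERL1 and DERL3) had none. For the 6 members with more than 1 window, the first listed was used. Motifs were searched on both strands. The ER stress element ERSE, written as CCAAT, 9 bases of any kind and CCACG, was found in 7 of the 33 (21.2%) and in 22 of all 27305 promoters (0.0806%). ERSE-II, written as ATTGG, 1 base of any kind and CCACG, was found in 3 (HERPUD1, HYOU1 and SDF2L1) against 0.0549% of all promoters. The unfolded protein response element UPRE, written TGACGTGG, was found in 3 (DNAJC10, HYOU1 and VCP) against 0.795%. The element bound by pairs of C/EBP and ATF proteins, written TGATGNAA, was found in HERPUD1 alone among the members, against 3.67%. A match describes the letters of a window and shows no binding. The members were listed for the response these elements serve, so the shares describe the list and are no test of it. The 5 windows below carry the elements in front of genes whose values the results turn on, given 5′ to 3′ on the gene's strand, with matched motifs in capitals. Only bases before the first exon of the gene in GENCODE v29 are printed.
HSPA5: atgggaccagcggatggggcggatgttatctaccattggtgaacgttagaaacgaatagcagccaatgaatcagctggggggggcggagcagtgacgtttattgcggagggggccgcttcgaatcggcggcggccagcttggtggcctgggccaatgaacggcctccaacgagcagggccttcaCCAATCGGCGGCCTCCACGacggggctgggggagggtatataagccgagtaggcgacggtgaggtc
CALR: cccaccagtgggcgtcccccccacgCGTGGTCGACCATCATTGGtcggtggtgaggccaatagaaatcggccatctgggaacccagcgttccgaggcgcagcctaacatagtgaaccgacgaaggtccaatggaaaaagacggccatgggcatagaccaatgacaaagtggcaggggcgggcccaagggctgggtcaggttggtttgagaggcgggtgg
XBP1: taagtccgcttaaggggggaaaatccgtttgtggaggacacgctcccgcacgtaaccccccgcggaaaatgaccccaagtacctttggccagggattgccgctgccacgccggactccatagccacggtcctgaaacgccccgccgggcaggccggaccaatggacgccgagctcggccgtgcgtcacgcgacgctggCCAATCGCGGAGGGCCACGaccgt
HYOU1: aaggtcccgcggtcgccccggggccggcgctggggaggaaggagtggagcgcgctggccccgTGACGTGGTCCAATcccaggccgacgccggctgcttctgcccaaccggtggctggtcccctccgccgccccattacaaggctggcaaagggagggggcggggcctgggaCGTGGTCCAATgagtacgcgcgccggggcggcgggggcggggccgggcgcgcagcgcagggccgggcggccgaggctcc
HERPUD1: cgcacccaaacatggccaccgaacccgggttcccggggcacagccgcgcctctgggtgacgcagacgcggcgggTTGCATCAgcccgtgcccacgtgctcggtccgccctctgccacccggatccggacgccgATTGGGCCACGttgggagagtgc
HSPA5 lies on the minus strand with its window at chr9:125241344-125241593. CALR is on the plus strand (chr19:12938359-12938577), XBP1 on the minus strand (chr22:28800598-28800819), HYOU1 on the minus strand (chr11:119057206-119057455) and HERPUD1 on the plus strand (chr16:56931892-56932047). In HYOU1 the UPRE overlaps the first of its 2 ERSE-II matches. The ERSE sites of the other carriers are short enough to compare directly. Their letters are again those of the gene's own strand, and a reverse site is one where the element reads on the opposite strand. HSP90B1 has 2 sites, 1 in each orientation.
HSP90B1, forward: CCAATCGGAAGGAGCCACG
HSP90B1, reverse: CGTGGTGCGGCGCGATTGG
CANX, forward: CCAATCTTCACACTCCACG
CRELD2, reverse: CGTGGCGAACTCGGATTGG
ERO1B, reverse: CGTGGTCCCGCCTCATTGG

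The values are FPKM, which scale read fragments by library size and by the length of the transcript, and the authors deposited 1 table per line. Each line was therefore tested alone, and levels are not compared across the lines. Differences are on the log2(FPKM + 1) scale, which understates changes of low genes, with limma's standard error (SE) and an adjusted p over all genes tested. Libraries held 13.4 to 17.5 M reads in LP-1 and 10.3 to 21.8 M reads in U266, recovered from the steps of low values. As a guide to precision, 3 reads on a 2 kb transcript amounted to between 0.0857 and 0.112 FPKM in the LP-1 libraries and between 0.0687 and 0.145 FPKM in those of U266. The shares of even counts differed between the tables, so the recovered unit may not be the same. Depth and precision are therefore not compared across the lines. In LP-1, DMSO replicate 3 stood apart, with 7 of 35 members more than 0.5 log2 away from the mean of the other two DMSO libraries, and with a median of 0.15 higher for genes under 1500 bases and -0.24 for genes over 5000 bases. In U266, DHA replicate 3 held 18399 genes above 0 against 14682 to 14992 in the other libraries, and its summed monocyte and macrophage markers reached 16.9 FPKM against at most 0.803 FPKM in the DMSO libraries. The summed markers of other cell types (B, T and NK, erythroid, and stromal or endothelial) reached at most 6.58, 0.45, 0.70 and 5.29 FPKM in LP-1 and 12.0, 6.87, 11.6 and 9.94 FPKM in U266. The 7 plasma cell markers summed to 568 to 760 FPKM with DMSO and 595 to 614 FPKM with DHA in LP-1, and to 782 to 796 and 509 to 554 FPKM in U266. Of them, SLAMF7 stayed under 1 FPKM in LP-1 and CD38 in U266. In LP-1, 2 of the 6 tested plasma cell markers rose, the factor genes IRF4 (1.66 log2) and PRDM1 (0.68), and 3 fell, most of all SDC1 (-2.37), which encodes the surface proteoglycan CD138, and CD38 (-0.95). In U266, 3 of 6 fell, namely SDC1 (-1.11), TNFRSF17 (-0.68) and PRDM1 (-0.19), with IRF4 at 179 ± 6.11 and 179 ± 7.41 FPKM. Over all tested genes, 40.2% were called in LP-1 and 40.7% in U266. PRDM1 was not called in LP-1 without DMSO replicate 1 (limma adjusted p = 0.0507) or any 1 of the 3 DHA libraries (0.069 to 0.0814), nor in U266 without DMSO replicate 1 (0.116) or 3 (0.077) or DHA replicate 1 (0.0546) or 3 (0.0755). The part of these shifts in the results below was not tested. In bulk samples fewer cells of a type and less RNA per cell cannot be told apart.

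DHA against DMSO asks which of these genes respond within 12 h. In LP-1, 16 of 35 tested members rose, 7 fell and 12 did not pass the test, while 20% of all 12514 tested genes rose and 20.2% fell, 40.2% together. In U266, 9 of 36 rose, 11 fell and 16 did not pass, against 21.1% and 19.6% of 10422 genes, 40.7% together. The median member changed by 0.28 log2 in LP-1 and by -0.06 in U266, beside 0.01 and 0.02 over all tested genes. The set thus did not move in 1 direction. In both lines the IRE1 gene ERN1 and the co-chaperone DNAJB9 rose most, while the large chaperones HSPA5 and HSP90B1 and the XBP1 message fell. Of the 11 genes of ER-associated degradation, 7 rose and 1 fell in LP-1, and 3 rose and 2 fell in U266. The called shares of this class were 72.7% and 45.5%, against 40.2% and 40.7% of all tested genes. Without LP-1 DMSO replicate 3 the counts of members higher and lower were 18 and 9 in LP-1. Without LP-1 DHA replicate 1, CREB3L2, DNAJB11, CANX, DNAJC10 and EDEM2 were no longer called higher, nor XBP1 and TXNDC5 lower. Of the 23 members called in LP-1, 16 passed under every alternative run. Without U266 DHA replicate 3 the counts were 9 and 9 in U266. Leaving out U266 DMSO replicate 3 left 7 members lower in U266.

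**Figure D1:**
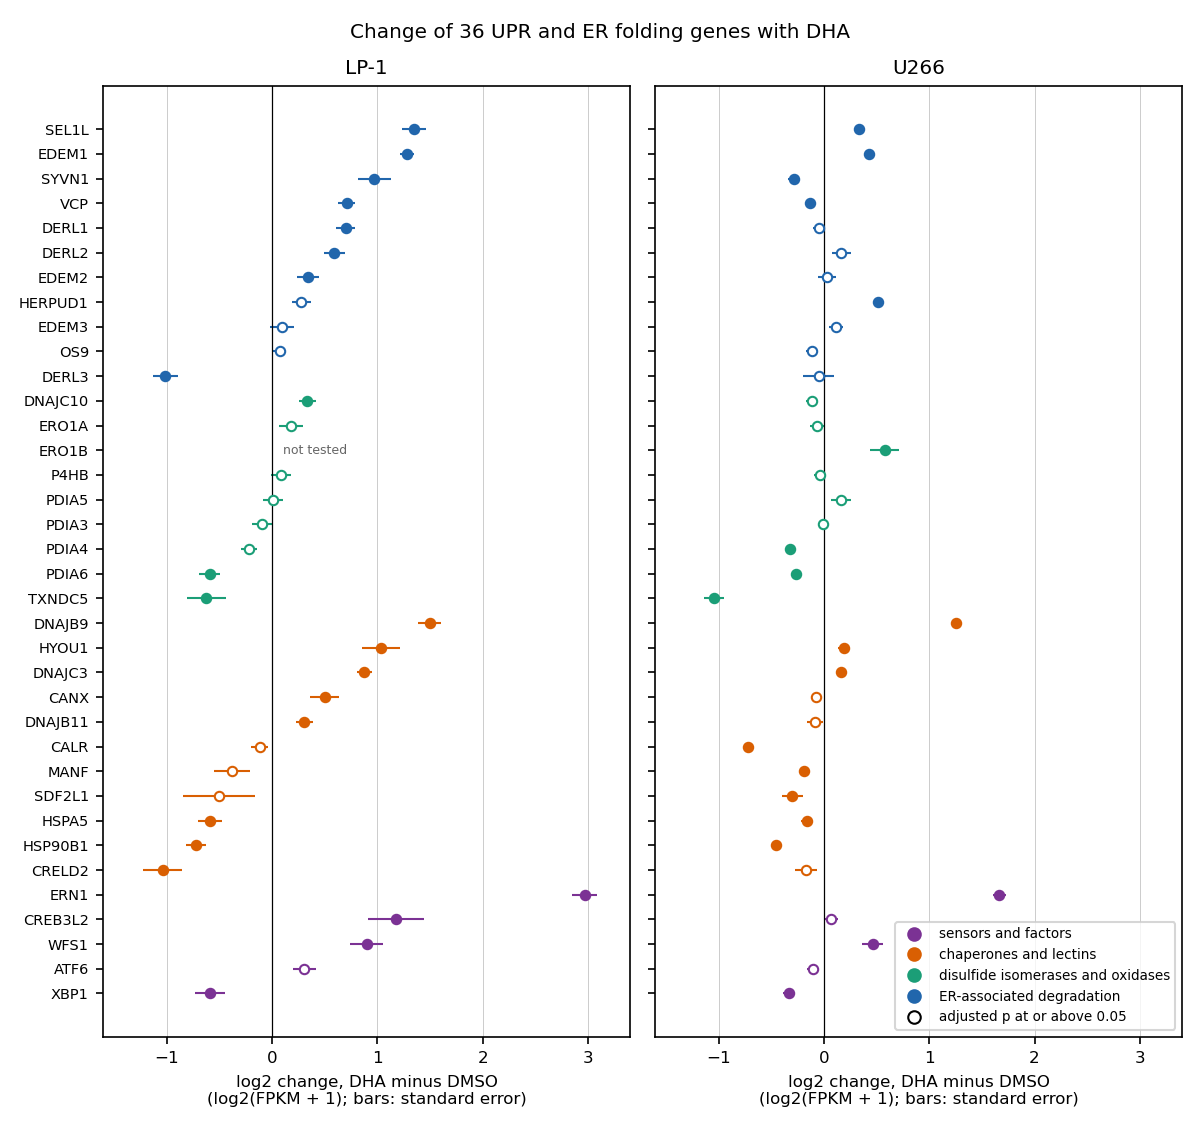
Log2 change, DHA minus DMSO, on the log2(FPKM + 1) scale (x axis) for each of the 36 members (y axis), with LP-1 at left and U266 at right. Points are limma estimates from 3 against 3 libraries, bars are standard errors, colours are the 4 classes and open points did not pass an adjusted p of 0.05. ERN1 lies farthest right in both lines, at 2.97 and 1.67, and the degradation genes sit farther right in LP-1 than in U266, apart from HERPUD1, EDEM3 and DERL3.

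Among the sensors and factors, 3 of 5 rose and 1 fell in LP-1, and 2 rose and 1 fell in U266. The called shares were 80% and 60%, against 40.2% and 40.7% of all tested genes. ERN1 (ENSG00000178607, chromosome 17, 64039142 to 64130819, GRCh38) encodes the kinase and RNase IRE1 alpha. In LP-1 it was at 4.07, 4.54 and 3.10 FPKM with DMSO and at 37.5, 37.2 and 36.4 FPKM with DHA. In U266 it was at 12.2, 10.6 and 11.5 FPKM with DMSO and at 38.3, 40.1 and 36.9 FPKM with DHA. Every DHA library lay far above every DMSO library of its line. The rise was 9.49-fold in LP-1 (2.97 ± 0.12 log2, SE, n = 3 per group, limma adjusted p = 5.8e-05) and 3.36-fold in U266 (1.67 ± 0.06, limma adjusted p = 3.59e-08).

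XBP1 (ENSG00000100219, chromosome 22, 28794555 to 28800597) encodes the factor that IRE1 activates, and its total message went the other way. XBP1 stood at 483, 428 and 598 FPKM in the LP-1 DMSO libraries and at 317, 328 and 348 FPKM after DHA. In U266 the values were 258, 268 and 267 FPKM with DMSO and 219, 212 and 198 FPKM with DHA. Groups did not overlap in either line, and the LP-1 DMSO libraries were the most scattered. XBP1 fell by 0.59 log2 in LP-1 (SE 0.14, limma adjusted p = 0.0195) and by 0.33 in U266 (SE 0.05, limma adjusted p = 0.000704). In LP-1 the call did not hold without DMSO replicate 1 (adjusted p = 0.057) or without DHA replicate 1 (0.0864), 2 (0.0798) or 3 (0.0622), and the fall was 0.15 log2 after quantile normalization (adjusted p = 0.141). The LP-1 call was also lost with no filter on low values (limma adjusted p = 0.0673).

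ATF6 (ENSG00000118217, chromosome 1, 161766294 to 161964070) encodes the sensor that is cut in the Golgi. In LP-1 it was at 16.1, 17.5 and 13.3 FPKM with DMSO and at 19.3, 19.7 and 19.3 FPKM with DHA, and in U266 at 21.7, 21.2 and 21.6 FPKM with DMSO and at 19.8, 19.4 and 20.4 FPKM with DHA. The groups did not overlap, yet the change passed the test in neither line (0.31 log2, limma adjusted p = 0.0621, and -0.11, limma adjusted p = 0.112). Without LP-1 DMSO replicate 2 or 3 the LP-1 value passed, with adjusted p of 0.0276 and 0.0186.

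CREB3L2 encodes an ER-bound transcription factor of the same design as ATF6. Its LP-1 libraries were at 17.0, 22.2 and 9.78 FPKM with DMSO and at 37.6, 37.1 and 34.3 FPKM with DHA. The groups were separate, with DMSO replicate 3 lowest, and the rise was 1.18 ± 0.27 log2 (SE, limma adjusted p = 0.0149). Without DHA replicate 1 or 2 its adjusted p was 0.0555 and 0.0552. The U266 means were 30.8 ± 2.31 FPKM for DMSO and 32.4 ± 1.36 FPKM for DHA (mean ± SD, n = 3), which did not pass.

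WFS1 encodes wolframin, a membrane protein of the ER that is mutated in Wolfram syndrome. In U266 it rose from 4.66, 4.79 and 4.57 FPKM to 6.07, 6.54 and 7.94 FPKM. In LP-1 it rose from 1.82 ± 0.523 to 4.20 ± 0.431 FPKM. The DHA libraries were above all DMSO libraries in both lines, by 0.90 ± 0.16 log2 in LP-1 (SE, limma adjusted p = 0.00612) and 0.46 ± 0.10 in U266 (limma adjusted p = 0.0036).

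**Figure D2:**
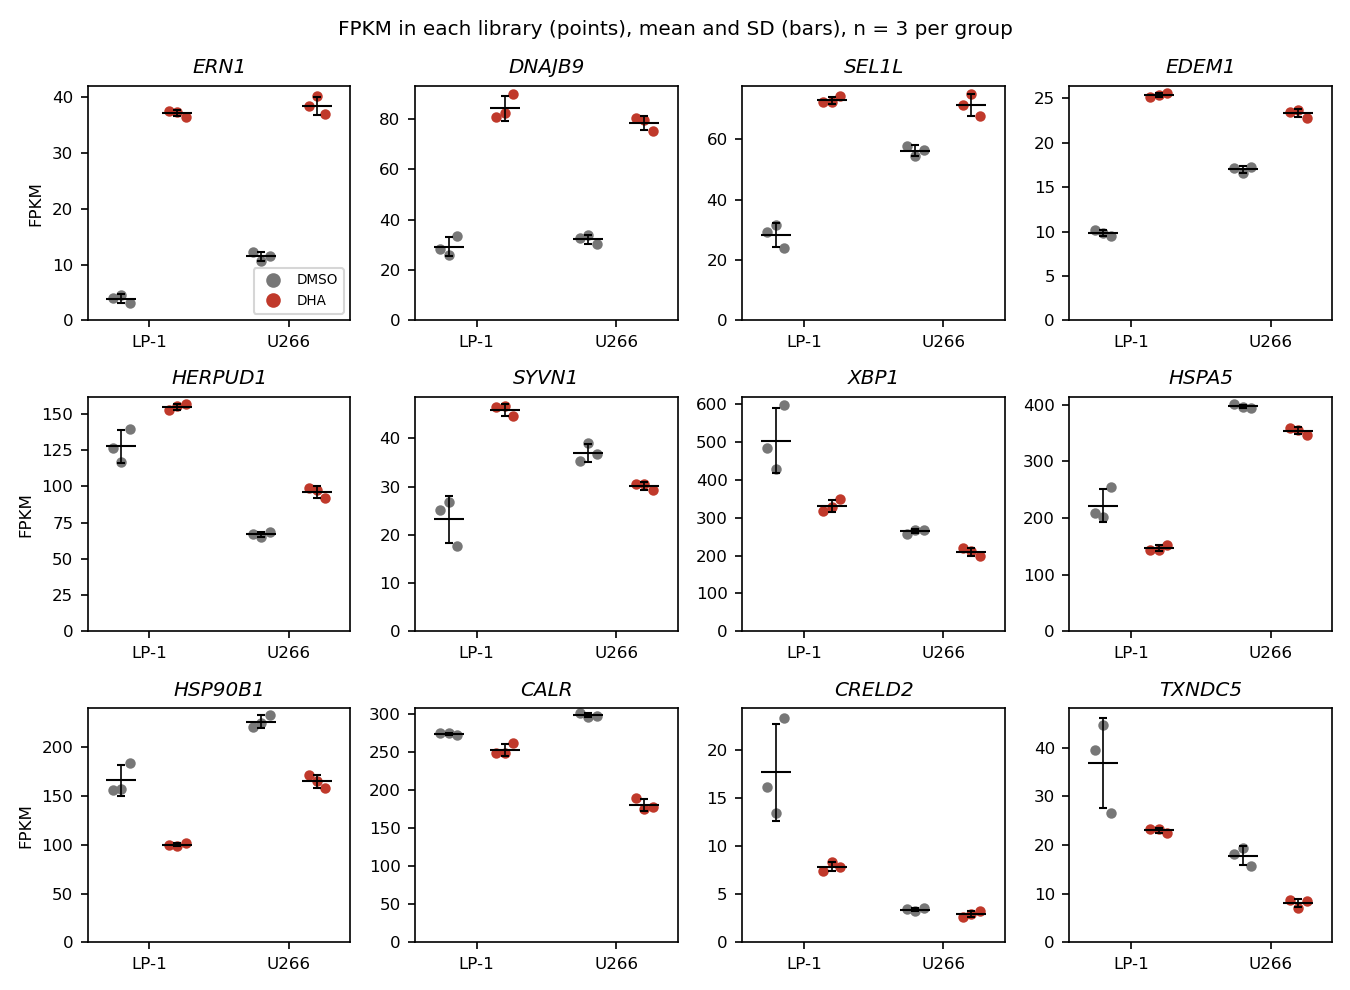
FPKM (y axis, from 0) of 12 members in each library, with LP-1 and U266 side by side, grey points for DMSO and red points for DHA. Horizontal marks are means and bars are SD of 3 libraries per group. ERN1 and DNAJB9 rise in both lines, HSPA5, HSP90B1 and XBP1 fall in both, and SYVN1 rises in LP-1 and falls in U266.

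The chaperones and lectins split within the class. In LP-1, 5 of 11 rose and 3 fell, and in U266, 3 rose and 5 fell. The called share was 72.7% in each line, against 40.2% and 40.7% of all tested genes. HSPA5 (ENSG00000044574, chromosome 9, 125234853 to 125241330) encodes BiP, the main Hsp70 of the ER. In LP-1 it was at 209, 201 and 255 FPKM with DMSO and at 143, 144 and 153 FPKM with DHA. In U266 it was at 401, 395 and 395 FPKM with DMSO and at 359, 356 and 347 FPKM with DHA. All DHA libraries were lower, by 0.58 log2 in LP-1 (SE 0.11, limma adjusted p = 0.00911) and by 0.16 in U266 (SE 0.05, limma adjusted p = 0.02). In U266 HSPA5 failed the test without DMSO replicate 1 (adjusted p = 0.0678), DMSO replicate 3 (0.0793) or DHA replicate 2 (0.0761). It also failed there with no filter on low values (limma adjusted p = 0.0712). After quantile normalization the falls were smaller, 0.36 log2 in LP-1 (still passing) and 0.08 in U266 (limma adjusted p = 0.164).

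HSP90B1 (ENSG00000166598, chromosome 12, 103930107 to 103953645) encodes GRP94, the Hsp90 of the ER. Its values were 156, 157 and 184 FPKM in the LP-1 DMSO libraries and 100, 98.4 and 102 FPKM in the DHA libraries. In U266 they were 221, 224 and 233 FPKM with DMSO and 171, 165 and 158 FPKM with DHA. The groups were far apart in both lines, and HSP90B1 fell by 0.72 (SE 0.09, limma adjusted p = 0.00218) and 0.45 log2 (SE 0.05, limma adjusted p = 6.55e-05).

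The calcium-binding lectin CALR, which holds newly made glycoproteins in the folding cycle, fell in U266 from 301, 296 and 298 FPKM to 189, 175 and 177 FPKM (-0.72 ± 0.05 log2, SE, limma adjusted p = 2.65e-06). The LP-1 means were 274 ± 1.27 FPKM for DMSO and 253 ± 7.64 FPKM for DHA, and the difference of -0.12 log2 did not pass (limma adjusted p = 0.295). Its membrane-bound relative CANX rose in LP-1, from 97 ± 17.3 to 136 ± 1.61 FPKM (limma adjusted p = 0.0324). CANX failed the test without DMSO replicate 1 (adjusted p = 0.0577) and without any single DHA library (0.0991 to 0.103). It also failed in LP-1 after quantile normalization (limma adjusted p = 0.0681) and with no filter on low values (0.0753). In U266 CANX was at 249 ± 2.63 and 235 ± 6.7 FPKM and did not pass.

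CRELD2, a secreted and ER-resident factor induced by ER stress in many cells, fell in LP-1 from 16.2, 13.5 and 23.3 FPKM to 7.44, 8.34 and 7.85 FPKM. The fall was 2.24-fold (-1.04 ± 0.19 log2, SE, limma adjusted p = 0.00662). Its U266 means were 3.42 ± 0.183 FPKM for DMSO and 2.93 ± 0.311 FPKM for DHA, with overlapping libraries. MANF, another stress-induced ER protein, was at 91.4 ± 23.5 and 68.5 ± 1.54 FPKM in LP-1, where it passed only without DMSO replicate 3 (limma adjusted p = 0.0186) or after quantile normalization (0.0323). In U266 MANF fell from 46.2 ± 1.26 to 40.6 ± 2.27 FPKM (limma adjusted p = 0.0175), but the call was lost without DMSO replicate 1 (0.0682), DMSO replicate 3 (0.0505) or DHA replicate 2 (0.068). Nor did MANF pass there after quantile normalization (limma adjusted p = 0.0816) or without the variance trend (0.0555). SDF2L1, which keeps misfolded clients soluble with DNAJB11, fell in U266 from 28.9 ± 4.89 to 23.1 ± 1.77 FPKM (-0.30 log2, limma adjusted p = 0.0398). Without U266 DMSO replicate 2 its change was -0.17 (adjusted p = 0.107), and the call was also lost without DMSO replicate 3 (0.0512), DHA replicate 1 (0.083) or DHA replicate 3 (0.103). The same held in U266 with no filter on low values (limma adjusted p = 0.156), without the variance trend (0.0925) and with the length trend removed (0.0702). In LP-1 its DMSO libraries ran from 19.99 to 54.5 FPKM and overlapped the DHA libraries.

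Besides CANX in LP-1, the members of this class that rose were HYOU1 and J-domain proteins, which drive the Hsp70 cycle. DNAJB9 (ERdj4, ENSG00000128590, chromosome 7, 108569568 to 108574850) rose in LP-1 from 28.4, 26.1 and 33.5 FPKM to 80.6, 82.2 and 89.8 FPKM. In U266 it rose from 32.7, 33.7 and 30.3 FPKM to 80.5, 79.5 and 75.2 FPKM. The libraries of the 2 treatments were far apart in both lines, with folds of 2.87 (limma adjusted p = 0.000318) and 2.43 (limma adjusted p = 9.58e-08). DNAJC3 (p58IPK, an inhibitor of PERK) rose from 12.7 ± 0.567 to 24.1 ± 0.607 FPKM in LP-1 (limma adjusted p = 0.000413) and from 30.3 ± 1.09 to 34 ± 0.734 FPKM in U266 (limma adjusted p = 0.0221). In U266 DNAJC3 failed the test without DMSO replicate 2 (0.0806) or DHA replicate 2 (0.0746). It also failed there under TMM-style scaling (0.0673), without the variance trend (0.0599), with the replicate block (0.0521) and with the length trend removed (0.0616). DNAJB11 rose in LP-1, from 18.6 ± 1.27 to 23.3 ± 1.2 FPKM (limma adjusted p = 0.0264), and lost the call without DMSO replicate 1 (0.0867) or 2 (0.0514) or any 1 of the 3 DHA libraries (0.0797 to 0.109). The LP-1 call was also lost with the length trend removed (limma adjusted p = 0.0786). In U266 DNAJB11 was at 20.2 ± 1.58 and 19 ± 1.62 FPKM and did not pass (limma adjusted p = 0.384). HYOU1, the nucleotide exchange factor of BiP also known as GRP170, rose in LP-1 from 51.4, 51.8 and 33.2 FPKM to 92.6, 93.4 and 90.9 FPKM (1.03 ± 0.18 log2, SE, limma adjusted p = 0.00544). In U266 it went from 23.6, 24.7 and 23.5 FPKM to 27.8, 28.7 and 25.7 FPKM, with all DHA libraries above all DMSO libraries (0.19 ± 0.06, limma adjusted p = 0.021). That smaller rise was not called without DMSO replicate 1 (0.0678), DMSO replicate 3 (0.0744), DHA replicate 1 (0.0579) or DHA replicate 2 (0.0799). Nor was it called under TMM-style scaling (0.0695), without the variance trend (0.0542) or with the length trend removed (0.102).

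Disulfide isomerases and oxidases form and reshuffle the disulfide bonds of secreted proteins such as antibodies. In LP-1, 1 of 8 tested rose and 2 fell, 37.5% called against 40.2% of all genes, and in U266, 1 of 9 rose and 3 fell, 44.4% against 40.7%. TXNDC5 (ENSG00000239264, chromosome 6, 7881517 to 7910814), an isomerase abundant in plasma cells, fell in U266 from 18.3, 19.4 and 15.6 FPKM to 8.68, 7.11 and 8.58 FPKM (-1.04 ± 0.09 log2, SE, limma adjusted p = 1.78e-05). In LP-1 it went from 39.5, 44.6 and 26.5 FPKM to 23.3, 23.3 and 22.5 FPKM, with DMSO replicate 3 closest to the DHA libraries (-0.62 ± 0.19, limma adjusted p = 0.0371). This call was lost without DMSO replicate 1 (0.11) or 2 (0.0654) and without any 1 of the 3 DHA libraries (0.101 to 0.109). The same held after quantile normalization (limma adjusted p = 0.0566) and with no filter on low values (0.0862). PDIA6, which also damps IRE1 signalling, fell in LP-1 from 131, 121 and 146 FPKM to 86, 85.6 and 91 FPKM (limma adjusted p = 0.0046). In U266 it fell from 61.6 ± 0.816 to 51.1 ± 0.782 FPKM (-0.27 log2, limma adjusted p = 0.000768, and -0.16 after quantile normalization, adjusted p = 0.0141).

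PDIA4 (ERp72) fell in U266 from 104, 101 and 99.2 FPKM to 81.1, 79.8 and 80.8 FPKM (-0.33 ± 0.04 log2, SE, limma adjusted p = 0.000212). In LP-1 it was at 82.9 ± 4.42 and 70.9 ± 0.472 FPKM (limma adjusted p = 0.0584), and it passed there without DMSO replicate 3 (0.00289) and under TMM-style scaling (0.0466). ERO1B, an oxidase that recharges the isomerases, rose in U266 from 2.80, 2.23 and 1.86 FPKM to 3.25, 4.495 and 4.003 FPKM (0.58 ± 0.14, limma adjusted p = 0.0075). In LP-1 its libraries lay between 0.73 and 1.17 FPKM and it was not tested. DNAJC10 (ERdj5), a reductase of misfolded proteins, rose in LP-1 from 3.19, 2.98 and 2.74 FPKM to 4.03, 3.97 and 3.99 FPKM (0.33 ± 0.08, limma adjusted p = 0.0189). Its groups did not overlap, but the call was lost without any 1 of the 3 DHA libraries (0.0746 to 0.0822), and with the length trend removed its change was -0.02 (adjusted p = 0.902). With the replicate block its limma adjusted p was 0.0543. DNAJC10 has the longest summed exons of the set, 21835 bases in GENCODE v29. The abundant isomerases P4HB (77.4 ± 7.35 and 81.8 ± 1.7 FPKM in LP-1, 95.9 ± 1.81 and 93.3 ± 5.84 FPKM in U266) and PDIA3 (51.1 ± 5.39 and 47.5 ± 1.51, 28.7 ± 0.351 and 28.5 ± 1.02 FPKM) did not pass in either line. The same held for PDIA5 and for ERO1A, the widely expressed oxidase.

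ER-associated degradation carries misfolded proteins through the membrane to the proteasome. In LP-1, 7 of 11 genes rose and 1 fell, and in U266, 3 rose and 2 fell. The called shares were 72.7% and 45.5%, against 40.2% and 40.7% of all tested genes. SEL1L (ENSG00000071537, chromosome 14, 81471549 to 81533861), the scaffold of the HRD1 ligase complex, rose in LP-1 from 29.2, 31.7 and 23.9 FPKM to 72.3, 72.1 and 74.2 FPKM. In U266 it rose from 56.2 ± 1.73 to 71.2 ± 3.74 FPKM. The LP-1 change was 1.34 ± 0.11 log2 (SE, limma adjusted p = 0.000481) and the U266 change 0.34 ± 0.05 (limma adjusted p = 0.00059). EDEM1, a mannosidase-like protein that marks glycoproteins for disposal, rose from 10.2, 9.79 and 9.55 FPKM to 25.1, 25.4 and 25.6 FPKM in LP-1 (1.28 ± 0.07, limma adjusted p = 0.000116). In U266 it rose from 17.2, 16.6 and 17.3 FPKM to 23.5, 23.7 and 22.8 FPKM (0.43 ± 0.05, limma adjusted p = 9e-05). Neither gene had overlapping libraries. Its relative EDEM2 rose in LP-1 from 19.3 ± 2.29 to 24.6 ± 0.893 FPKM (0.34 log2, limma adjusted p = 0.0381, and 0.55 with the length trend removed, 0.00216). Without DMSO replicate 1 (0.0677) or any 1 of the 3 DHA libraries (0.0943 to 0.135) EDEM2 was not called. Nor was it called with no filter on low values (limma adjusted p = 0.072), under TMM-style scaling (0.0529) or with the replicate block (0.0744). EDEM3 and the lectin OS9 passed in neither line.

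The ligase gene SYVN1 (HRD1, ENSG00000162298, chromosome 11, 65121780 to 65134533) went in opposite directions. The LP-1 libraries were at 25.2, 26.8 and 17.7 FPKM with DMSO and at 46.4, 46.7 and 44.5 FPKM with DHA. In U266 it was at 35.3, 39.0 and 36.6 FPKM with DMSO and at 30.6, 30.5 and 29.2 FPKM with DHA. All DHA libraries were higher in LP-1 (0.97 ± 0.15 log2, SE, limma adjusted p = 0.00419) and lower in U266 (-0.29 ± 0.05, limma adjusted p = 0.00166). VCP, the ATPase that pulls proteins out of the membrane, showed the same pair of directions. It rose in LP-1 from 12.8 ± 0.757 to 21.5 ± 0.747 FPKM (0.71 ± 0.08, limma adjusted p = 0.0011). In U266 it went from 76.1, 75.6 and 77.9 FPKM to 71.5, 70.3 and 67.4 FPKM (-0.13 ± 0.04, limma adjusted p = 0.0366). The U266 call for VCP was lost without any 1 of the 3 DMSO libraries (adjusted p of 0.0595 to 0.134) or without DHA replicate 2 (0.0781) or 3 (0.0846), and the change was -0.04 after quantile normalization (adjusted p = 0.388). This call was also lost without the variance trend (limma adjusted p = 0.0995) and with the replicate block (0.0775). Of all genes tested in both lines, 3.79% were called in opposite directions.

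The derlins, channel-like proteins of the same pathway, differed among themselves. In LP-1, DERL1 rose from 31.1 ± 2.79 to 51 ± 0.301 FPKM (limma adjusted p = 0.00182) and DERL2 from 7.23 ± 0.935 to 11.4 ± 0.365 FPKM (limma adjusted p = 0.00508). DERL3, the form most restricted to secretory cells, fell there from 6.92, 6.08 and 7.38 FPKM to 2.41, 3.24 and 2.97 FPKM (-1.01 ± 0.12 log2, SE, limma adjusted p = 0.00134). In U266 none of the 3 derlins passed in limma, also at an unadjusted p of 0.05, and DERL3 averaged 1.497 ± 0.315 FPKM in the DMSO libraries and 1.40 ± 0.22 FPKM in the DHA libraries.

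HERPUD1 (ENSG00000051108, chromosome 16, 56932048 to 56944863), a partner of HRD1 whose promoter carries both an ERSE-II and a C/EBP-ATF element, was at 126, 117 and 139 FPKM in the LP-1 DMSO libraries and at 152, 155 and 157 FPKM with DHA. In U266 it rose from 67.4, 65.2 and 68.5 FPKM to 99.2, 97.3 and 91.8 FPKM. All DHA libraries were higher in both lines, by 0.28 log2 in LP-1 (SE 0.09, limma adjusted p = 0.0531, not passed) and by 0.51 in U266 (SE 0.05, limma adjusted p = 2.18e-05). In LP-1 HERPUD1 passed without DMSO replicate 3 (0.00228), after quantile normalization (0.00996) and without the variance trend (0.0498).

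Seen over the whole set, the DHA libraries lay above all DMSO libraries for 19 of 36 members in LP-1 and below them for 10, while 30.2% and 28.6% of all tested genes did so (58.8% either way). In U266 the counts were 10 and 14, against 27.6% and 23.9% (51.5% either way). Summed over the 11 degradation genes, the level rose from 350 ± 6.52 to 499 ± 2.97 FPKM in LP-1 and from 367 ± 4.49 to 404 ± 16.0 FPKM in U266. The chaperones and lectins summed to 1007 ± 66.7 and 957 ± 22 FPKM in LP-1 and to 1355 ± 2.28 and 1160 ± 28.5 FPKM in U266. The disulfide class summed to 407 ± 5.91 and 340 ± 4.71 FPKM in LP-1 and to 342 ± 6.74 and 299 ± 9.35 FPKM in U266. These sums are descriptions with no test, and each is carried by its most abundant members.

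**Figure D3:**
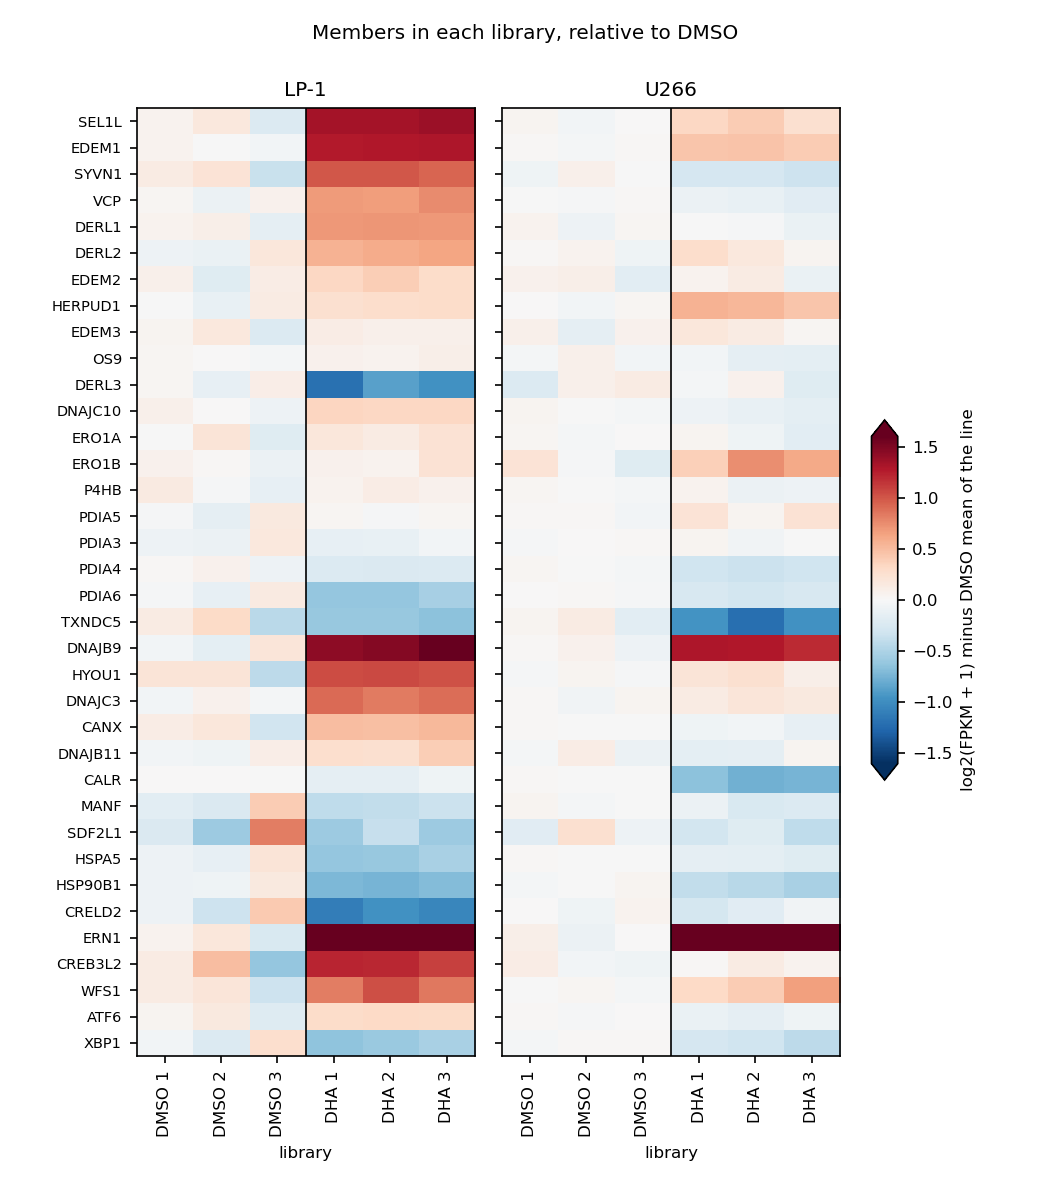
Each library's log2(FPKM + 1) minus the mean of the DMSO libraries of its line, for the 36 members (rows, by class and LP-1 change) and 6 libraries per line (columns). Red is above and blue below the DMSO mean, and values beyond the ends of the scale take the end colour. LP-1 DMSO replicate 3 deviates most among the controls, as in SDF2L1 and CREB3L2, while the 3 DHA libraries of each line resemble each other.

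Motif carriers were then set beside the calls. Over all tested genes, 20% rose and 20.2% fell in LP-1, and 21.1% rose and 19.6% fell in U266. Of the 7 members with an ERSE, 6 were tested in LP-1, where 4 fell (CRELD2, HSP90B1, HSPA5 and XBP1), 1 rose (CANX) and 1 did not pass. In U266, 4 fell (CALR, HSP90B1, HSPA5 and XBP1), 1 rose (ERO1B) and 2 did not pass. Their median change was -0.59 log2 in LP-1 and -0.17 in U266. Of the 3 with an ERSE-II, HYOU1 rose in both lines, HERPUD1 in U266, and SDF2L1 fell in U266. The 3 with a UPRE (DNAJC10, HYOU1 and VCP) all rose in LP-1, with the limits given above for DNAJC10, while in U266 HYOU1 rose and VCP fell. Of the 21 with a window and none of the 4 motifs, 11 rose and 2 fell in LP-1 (median 0.31), and 6 rose and 5 fell in U266 (median 0.03). Those that rose in LP-1 include ERN1, DNAJB9, SEL1L, EDEM1 and SYVN1, of which SYVN1 fell in U266. Among the same members PDIA6 and TXNDC5 fell in both lines, and MANF and PDIA4 fell in U266. These counts were read with the calls known, carry no test, and say only that these exact letters are or are not in the window.

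The PERK arm is the third branch, and its genes were listed beside the members. Of 11 tested genes of PERK, ATF4 and CHOP and their targets, 11 rose in LP-1, and in U266 10 rose and 1 fell. That is 100% called in each line, against 40.2% and 40.7% of all tested genes. EIF2AK3, which encodes PERK, rose in LP-1 from 8.35 ± 1.23 to 15.8 ± 0.255 FPKM (limma adjusted p = 0.00208). In U266 it fell from 94.9 ± 2.45 to 69.4 ± 2.63 FPKM (limma adjusted p = 5.13e-05). ATF4 rose from 244 ± 51.4 to 379 ± 9.26 FPKM in LP-1 (limma adjusted p = 0.0183) and from 235 ± 13.4 to 420 ± 22.1 FPKM in U266 (limma adjusted p = 4.18e-06). The LP-1 call for ATF4 was lost without DMSO replicate 1 (0.0676) or any 1 of the 3 DHA libraries (0.0647 to 0.0718), and the rise was 1.01 log2 after quantile normalization. DDIT3 rose from 54.8 ± 12 to 187 ± 6.09 FPKM in LP-1 and from 12.8 ± 1.1 to 97.0 ± 0.706 FPKM in U266, 3.41-fold and 7.6-fold. The largest log2 rises of the list were SESN2 (3.69) and TRIB3 (3.23) in LP-1 and DDIT3 (2.84) and SESN2 (2.66) in U266. The median of the list was 1.77 log2 in LP-1 and 1.90 in U266, against 0.28 and -0.06 for the 36 members. SESN2, TRIB3, CHAC1 and ASNS are also induced by ATF4 when other kinases phosphorylate eIF2 alpha.

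Of 12 other tested regulators of the response, 1 rose and 2 fell in LP-1, and 2 rose and 3 fell in U266. The called shares were 25% and 41.7%, against 40.2% and 40.7% of all tested genes. The NF-Y subunit gene NFYC, whose complex binds the CCAAT end of the ERSE, rose in LP-1 by 0.65 log2, NFYB fell by 0.38 and CREB3L4 fell by 0.36. In U266 CREB3L4 (0.33) and TMBIM6 (0.22) rose, and the largest falls were in NFYA (-0.47) and in MBTPS1 (-0.39), the Golgi protease that cuts ATF6. Calls close to the threshold were NFYB in LP-1, lost without DMSO replicate 1 (limma adjusted p = 0.0554) or any 1 of the 3 DHA libraries (0.0834 to 0.145), and CREB3L4. The latter was lost in LP-1 without DMSO replicate 1 (0.137) or 3 (0.0573) or any 1 of the 3 DHA libraries (0.0619 to 0.158), and in U266 without any 1 of the 3 DMSO libraries (0.0721 to 0.133) or DHA replicate 1 (0.128) or 3 (0.128). Of 29 other folding and glycan quality control genes, 5 rose and 5 fell in LP-1, and of 28 in U266, 5 rose and 9 fell. Called shares here were 34.5% and 50%, beside the same 40.2% and 40.7%. The largest LP-1 changes were rises in SEC63 (0.93) and in the glycoprotein folding sensor UGGT1 (0.82), and falls in SELENOM (-1.01, and -1.67 with a pseudocount of 0.1) and SIL1 (-0.71). The UGGT1 call was lost without any 1 of the 3 LP-1 DHA libraries (limma adjusted p of 0.0643 to 0.0738). In U266 DNAJC1 (0.96) and SEC63 (0.42) rose, and the peroxiredoxin PRDX4 (-0.64) and TXNDC11 (-0.55) fell.

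Degradation genes outside the 36 were counted too. Of 25 tested, 12 rose and 3 fell in LP-1, and 10 rose and 3 fell in U266. The called shares were 60% and 52%, against 40.2% and 40.7% of all tested genes. In LP-1 SELENOK (0.90 log2) and the ubiquitin-conjugating enzyme UBE2J1 (0.82) rose most, and the ligase RNF5 (-0.84) and TMUB1 (-0.71) fell most. SELENOK was not called without LP-1 DMSO replicate 1 (limma adjusted p = 0.0548) or DHA replicate 2 (0.0624) or 3 (0.0676). In U266 HERPUD2 (0.68) and UBXN4 (0.54), which recruits VCP to the membrane, rose most, and UBE2J1 (-0.49) and UBE2G2 (-0.32) fell most. UBE2J1, which works with SEL1L and HRD1, thus went up in LP-1 and down in U266, as SYVN1 did. Of 7 transcripts cut by IRE1 in other cells, 2 passed the filter on low values. BLOC1S1, named after its values were seen, did not pass in either line, at 8.57 ± 4.42 and 6.4 ± 0.175 FPKM in LP-1 and 6.94 ± 0.857 and 5.75 ± 0.588 FPKM in U266, and it passed in U266 without DHA replicate 3 (limma adjusted p = 0.0389). TAPBP fell in U266 by 0.18 log2 (limma adjusted p = 0.014, and 0.0668 without DMSO replicate 3) and did not pass in LP-1.

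Whether the effect of DHA differed between the lines was tested with the interaction contrast on all 12 libraries. DHA was given at an IC50 with no concentration stated, and each line has its own table. A difference between the lines therefore cannot be told apart from one of dose or processing. Of 35 members, 15 had a higher DHA effect in LP-1 than in U266, 4 a lower one and 16 did not pass, against 18.6% and 16.1% of 8867 genes, 34.7% together. By class, the higher and lower counts were 3 and 0 of 5 sensors and factors, 5 and 2 of 11 chaperones and lectins, 1 and 1 of 8 disulfide genes, and 6 and 1 of 11 degradation genes. The largest differences were in ERN1 (1.30 ± 0.14 log2, SE, limma adjusted p = 4.8e-05), SYVN1 (1.26 ± 0.17, limma adjusted p = 0.000198) and CREB3L2 (1.10 ± 0.28, limma adjusted p = 0.0106). On the other side stood DERL3 (-0.96 ± 0.17, limma adjusted p = 0.00151), CRELD2 (-0.87 ± 0.21, limma adjusted p = 0.00807) and HSPA5 (-0.42 ± 0.12, limma adjusted p = 0.0221). The HSPA5 difference did not pass without LP-1 DHA replicate 1 (0.0588) or 2 (0.0579). The count of lower effects was 2 without either of these libraries and 7 without LP-1 DMSO replicate 2. DNAJB9, with the second largest rise in both lines, did not pass the test of the difference (0.24 ± 0.12, limma adjusted p = 0.153), and neither did XBP1 (-0.25 ± 0.15, limma adjusted p = 0.216) or HSP90B1 (-0.26 ± 0.11, limma adjusted p = 0.0748). Without LP-1 DMSO replicate 3 DNAJB9 passed (adjusted p = 0.00579), as did HSP90B1 (0.0361), and without LP-1 DMSO replicate 2 so did XBP1 (0.038) and HSP90B1 (0.0394).

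Called in the same direction in both lines were 7 members that rose (DNAJB9, DNAJC3, EDEM1, ERN1, HYOU1, SEL1L and WFS1) and 5 that fell (HSP90B1, HSPA5, PDIA6, TXNDC5 and XBP1). Among all genes tested in both lines these classes held 10.2% and 6.06%, and 20.1% were called in both lines in any direction. A further 7 members passed as higher in LP-1 alone, CRELD2 and DERL3 as lower in LP-1 alone, HERPUD1 as higher in U266 alone, and CALR, MANF, PDIA4 and SDF2L1 as lower in U266 alone. These lists are not tests of a difference, which the contrast above gives. Several of their calls are lost without 1 library, as stated for each gene, or under another processing alternative.

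**Figure D4:**
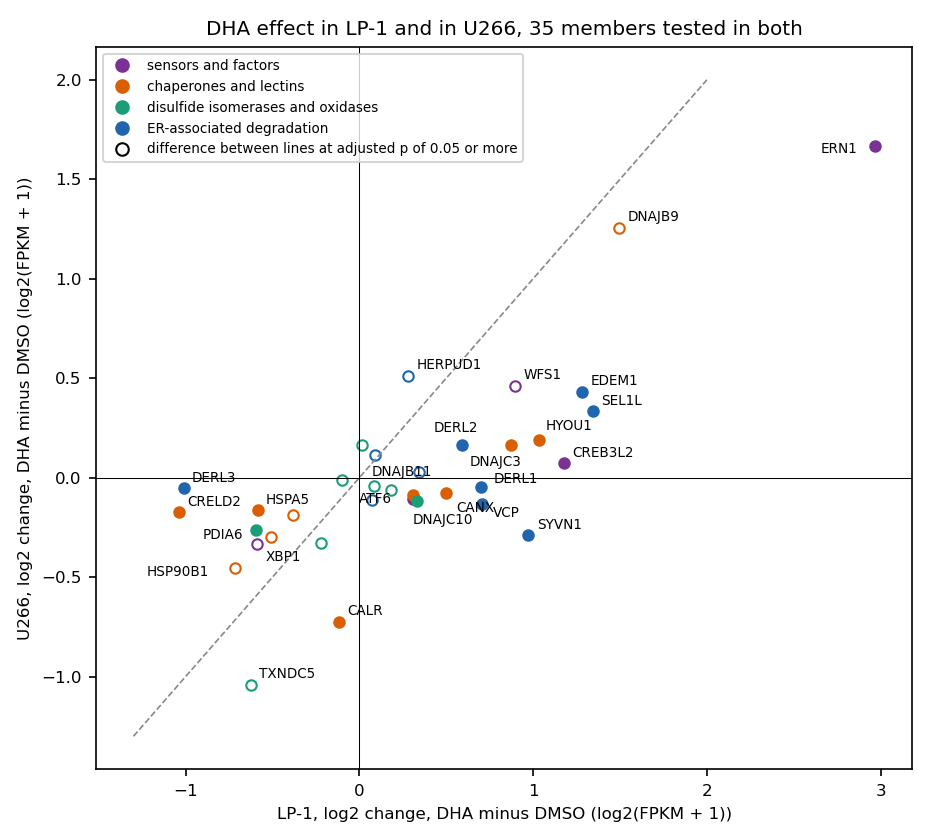
Log2 change with DHA in U266 (y axis) against LP-1 (x axis) on the log2(FPKM + 1) scale, for the 35 members tested in both lines. Colours are the classes, filled points passed the test of the difference between the lines, and the dashed line marks equal changes. ERN1, SYVN1 and CREB3L2 lie farthest to the right of the dashed line, and DERL3 and CRELD2 lie to its left.

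In 20 of the 36 members some exon overlaps an exon of another gene in GENCODE v29, and in 5 (DNAJB11, PDIA5, TXNDC5, DNAJC10 and SYVN1) that gene is on the same strand. SYVN1 shares exon sequence with FAU, TXNDC5 with the read-through gene BLOC1S5-TXNDC5, and DNAJC10 with a ribosomal protein pseudogene. How the authors assigned reads in such overlaps, and whether strand was used, is not recorded in the labels, so the values of these genes are uncertain to that extent.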

How the data were processed

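Per the labels, RNA came from RNeasy columns and a SMARTER kit was used for the mRNA libraries. The authors deposited FPKM, with a table for each line. Mouse builds (GRCm38, mm10) stand in the submitters' processing notes, although both tables hold human genes. Aligner, counter and annotation: not given in the sources used here. LP-1 genes were matched by Ensembl ID and 18943 of 19130 U266 symbols through a gene name table or GENCODE v29 names. Steps between low values, with GENCODE v29 exon lengths, gave the depth. Of the values up to 100 reads, 89.6 to 94.7% lay within 0.1 read of a whole number. The share of even counts was 37.0 to 39.0% in the LP-1 libraries, 76.3 to 78.0% in 5 U266 libraries and 52.5% in U266 DHA replicate 3. FPKM were tested without a count model.

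A gene was tested in a line where 3 or more of its 6 libraries reached 1 FPKM. Values were log2(FPKM + 1), fitted with limma 3.58.1 in R 4.3.3 (lmFit, eBayes with a variance trend, two-sided, Benjamini-Hochberg adjustment over all genes tested, threshold 0.05). Differences between the lines used an interaction contrast over genes kept in both. A constant offset on the log2(FPKM + 1) scale cancels in it. A scale factor between the tables does not fully cancel for genes of low FPKM, because of the added 1. The limma fit was tested on simulated data. The members and lists were chosen with earlier results of these data known. All 36 members may be named. Values in every library are given for ERN1, ATF6, XBP1, HSPA5, HSP90B1 and HERPUD1, for the 2 largest rises and falls per class and line among those passing, and for the 3 largest interactions in each direction. Of other lists, EIF2AK3, ATF4, DDIT3 and the 2 largest rises and falls are named. Alternatives were a pseudocount of 0.1, no filter, quantile normalization, scaling in the manner of TMM (30% and 5% trimmed), no variance trend, a replicate block, leaving out each library and, chosen after seeing the data, removal of the exon length trend. Promoter windows are RefSeq's.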

Additional observations from a re-analysis of the deposited data

Results flagged for a closer look

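For 19 of the 36 members the DHA effect differed between the lines by the interaction contrast in limma, which is why they are listed here. In these differences the line cannot be told apart from the dose or the processing of its table. The effect in LP-1 minus that in U266, in log2 units, was higher for ERN1 (1.30), SYVN1 (1.26), CREB3L2 (1.10), SEL1L (1.01), EDEM1 (0.85), HYOU1 (0.85), VCP (0.84), DERL1 (0.74), DNAJC3 (0.71), CALR (0.61), CANX (0.58), DNAJC10 (0.45), DERL2 (0.43), ATF6 (0.41) and DNAJB11 (0.40). It was lower for PDIA6 (-0.33), HSPA5 (-0.42), CRELD2 (-0.87) and DERL3 (-0.96). For CALR the positive value reflects a fall in U266 with no called change in LP-1. Of the 19, 13 passed under every alternative run.

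The other 6 lost the call under at least 1 alternative. HSPA5 was not called without LP-1 DHA replicate 1 (limma adjusted p = 0.0588) or 2 (0.0579) or under TMM-style scaling (0.0515). PDIA6 was not called without LP-1 DHA replicate 1 (0.0672) or 2 (0.069), U266 DMSO replicate 1 (0.0553) or 3 (0.0633) or U266 DHA replicate 1 (0.0552) or 3 (0.0536), or under TMM-style scaling (0.061). DNAJB11 was not called without LP-1 DHA replicate 3 (0.0594), U266 DMSO replicate 2 (0.0564) or U266 DHA replicate 1 (0.0536) or 2 (0.0534). DERL2 was not called without LP-1 DMSO replicate 1 (0.0537), LP-1 DHA replicate 2 (0.0517) or 3 (0.0578), U266 DMSO replicate 1 (0.0503) or 2 (0.0546) or U266 DHA replicate 3 (0.0546), or with the length trend removed (0.0689). CANX was not called after quantile normalization (0.0586), and DNAJC10 was not called with the length trend removed (difference 0.12, adjusted p = 0.542).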

How the results depend on the processing

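Of the called members, 16 of 23 in LP-1, 14 of 20 in U266 and 13 of 19 in the contrast between the lines passed under every alternative run. With 1 library left out, the counts of members ran from 11 to 18 higher and 5 to 9 lower in LP-1, from 7 to 9 and 7 to 10 in U266, and from 13 to 18 and 2 to 7 in the contrast. The contrast had 2 lower effects under TMM-style scaling, against 4 as reported. The cause of these shifts in the counts was not tested.

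Directions reversed for values that did not pass as reported and, among called members, for DNAJC10 in LP-1. After quantile normalization these were CALR (0.19) and PDIA5 (-0.024) in LP-1, PDIA3 (0.0087) and P4HB (0.028) in U266, and XBP1 (0.13) and EDEM3 (0.019) in the contrast. With the exon length trend removed they were CALR (0.015), DNAJC10 (-0.023) and EDEM3 (-0.039) in LP-1. IRF4 in U266, whose reported change was 0.00022, was -0.027 under TMM-style scaling, -0.035 with the length trend removed and -0.027 to 0.032 with 1 library left out. With 1 library left out, LP-1 values crossed 0 for PDIA5 (-0.057 to 0.092), EDEM3 (-0.019 to 0.18) and BLOC1S1 (-0.55 to 0.077). U266 values did so for PDIA3 (-0.035 to 0.015), EDEM2 (-0.055 to 0.097) and DERL3 (-0.16 to 0.020). In the contrast, EDEM3 (-0.13 to 0.064), SDF2L1 (-0.50 to 0.20) and MANF (-0.31 to 0.0047) did, the last 2 only without LP-1 DMSO replicate 3.

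The deviations of same-numbered DMSO and DHA libraries had correlations of 0.07, 0.02 and 0.18 in LP-1 and -0.04, -0.08 and -0.02 in U266. In LP-1 differently numbered pairs ran from -0.17 to 0.16, so the pair numbered 3 was the highest there. Not every library correlated best with its own number, and the numbers were not taken to pair the libraries. With the replicate block, 14 members were higher and 7 lower in LP-1, 8 and 10 in U266, and 15 and 4 in the contrast. Depth limits members near 1 FPKM, and ERO1B in LP-1 was left untested by the filter on low values.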
